A study of Bos taurus with 6 samples.

Results

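NID1, NID2, HSPG2, AGRN, COL18A1 and COL15A1 encode the proteins that link and fill the basement membrane. They are the nidogens 1 and 2, the heparan sulfate proteoglycans perlecan and agrin, and the multiplexin collagens XVIII and XV. The 6 genes were listed by function, by summing the deposited values of RefSeq transcripts to gene symbols, out of 23704 genes in all. They were listed with earlier results of these libraries known, so the levels and differences below describe these genes and are not independent evidence of a change.

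RNA was sequenced from pools of bovine (Bos taurus) primordial follicles (PMF), each an oocyte with flattened pre-granulosa cells, isolated mechanically from the ovarian cortex of Holstein Friesian dairy cows. The tested pools were 3 libraries of PMF retrieved after 16 h of culture (T16), and they were compared with 3 libraries of PMF retrieved after collection (T0). By the study's methods, freshly isolated follicles recovered for 1 h in a medium holding insulin, transferrin, selenium and FSH before lysis, and the culture conditions of the T16 pools are not given in the sources used here. A library is a pool of many follicles, and p-values measure the spread between pools, which no source used here assigns to separate animals.

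A basement membrane is built on a laminin network and a collagen IV network. Nidogens bind both networks and bridge them, and perlecan and agrin add heparan sulfate chains that hold growth factors. Agrin also binds the receptor dystroglycan, and at the nerve-muscle synapse it gathers acetylcholine receptors. Collagens XV and XVIII carry glycosaminoglycan chains and release antiangiogenic C-terminal fragments, which in collagen XVIII is endostatin. In the ovary the follicular basement membrane separates the granulosa cells from the stroma, which also holds vessels with basement membranes of their own.

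Total estimated counts were 25761986 to 36703016 in the T16 libraries and 22174653 to 30212698 in the T0 libraries. The label of the samples was checked against marker genes. All 14 oocyte markers had TPM (Salmon's relative abundance, which allows for transcript length) above 0 in every library, and their summed level, led by ZP3 and FIGLA, was 83.4 to 1918 TPM at T16 and 500.0 to 2844 TPM at T0. T16 replicate 2 and T0 replicate 1 were the lowest of their groups. All 12 granulosa markers were above 0 except FSHR in T16 replicate 3, with sums of 532 to 1590 TPM at T16 and 791 to 1749 TPM at T0. Markers listed for other cell types were present too. The sums were 276 to 1735 TPM at T16 and 1184 to 2943 TPM at T0 for stroma, and 34.1 to 53.8 TPM at T16 and 24.0 to 395 TPM at T0 for endothelium, of whose 12 markers 4 to 6 were at 0 in each T16 library and 1 to 5 in each T0 library. Smooth muscle and pericyte markers summed to 39.6 to 129 TPM at T16 and 115 to 449 TPM at T0. Theca markers had 57.9 to 1856 TPM at T16 and 631 to 3657 TPM at T0, surface epithelium markers 858 to 7837 TPM at T16 and 1010.5 to 9353 TPM at T0, and immune markers, among them C1QA at 0 in all 6 libraries, 2.74 to 55.3 TPM at T16 and 21.0 to 74.5 TPM at T0. The surface epithelium sums were led by the keratin genes KRT8 and KRT18. KRT8 and KRT18 had 6286 and 1341 TPM in T16 replicate 2, and 7671 and 1277 TPM in T0 replicate 1. Which cells these keratin transcripts came from was not tested. The part of all these marker sums in the results below was not tested either.

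NID2 was the most abundant of the 6 genes in every library, and the others stood in a different order of means at T16 and at T0. At T16, NID2 averaged 74.9 TPM (SD 28.1, n = 3), and COL15A1, HSPG2, AGRN, NID1 and COL18A1 followed with means of 6.11, 5.72, 4.29, 3.34 and 2.06 TPM. The lowest T16 value of NID2, 55.7 TPM, was above the highest value of any other member there, 15.7 TPM for COL15A1. The ranges of the other 5 genes at T16 overlapped, so their order there is not beyond the spread between libraries. At T0, NID2 averaged 90.9 TPM (SD 7.80, n = 3), NID1 34.3 TPM (SD 15.6, n = 3), HSPG2 32.5 TPM (SD 17.6, n = 3) and AGRN 23.2 TPM (SD 13.0, n = 3). COL15A1 and COL18A1 were the scarcest at T0, with 5.05 TPM (SD 2.64, n = 3) and 4.44 TPM (SD 1.49, n = 3). The T0 ranges fell into 3 steps that did not overlap, which were NID2, then NID1 with HSPG2 and AGRN, then both multiplexins.

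**Figure D1:**
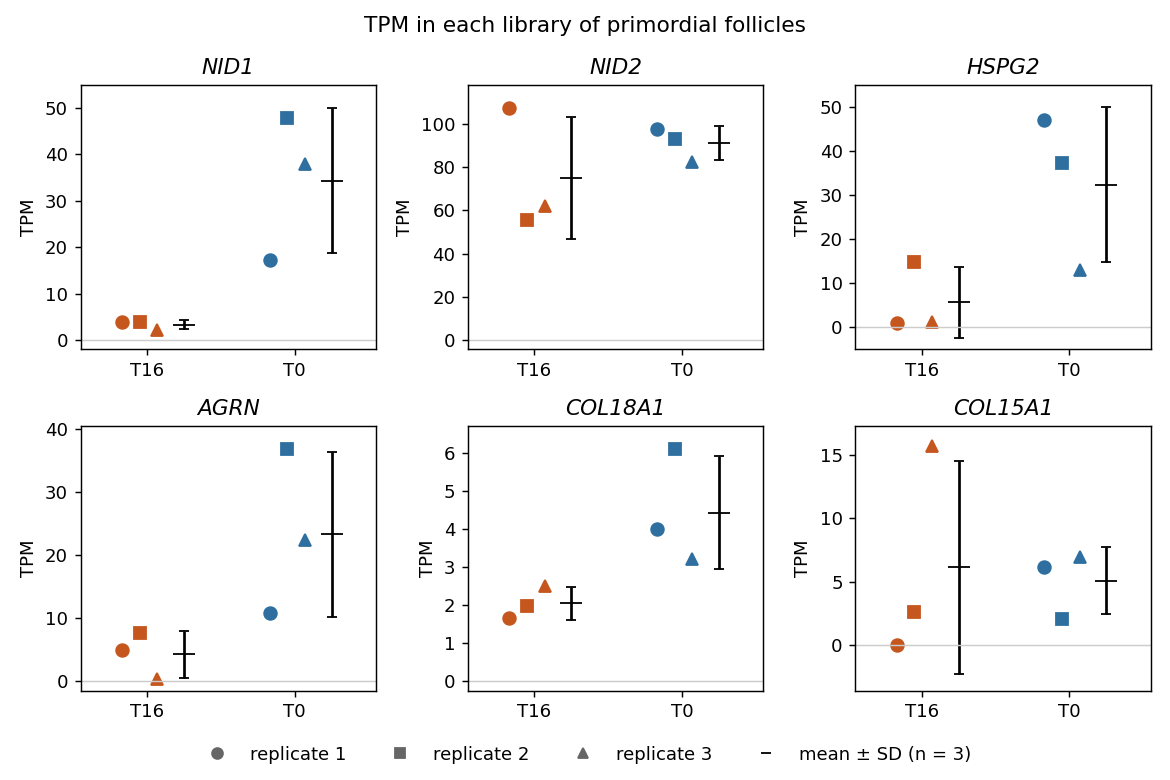
TPM of each gene (y axis, own scale per panel) in the T16 and T0 libraries, with symbols for replicates and black bars for the mean and SD of 3 libraries. All 3 T16 libraries lie below all 3 T0 libraries for NID1, AGRN and COL18A1, and the groups overlap for NID2, HSPG2 and COL15A1.

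NID1, the nidogen found widely in basement membranes, had the largest difference of the 6 with all libraries in the edgeR fit, although HSPG2 lay further from 0 without T16 replicate 2 (-4.76, against -3.31 for NID1) and in 3 other alternatives. NID1 had 3.95, 3.81 and 2.25 TPM in T16 replicates 1, 2 and 3, against 17.3, 47.9 and 37.8 TPM in T0 replicates 1, 2 and 3. Every T16 library was below every T0 library, and the T0 mean was 10.3 times the T16 mean. These values came from 375, 318 and 318 estimated counts at T16 and 1608, 5376 and 3191 at T0. The log2 fold change was -3.24 (SE 0.42) by edgeR's quasi-likelihood test, with an adjusted p of 0.0838 over the 14639 genes tested, so NID1 did not pass the threshold of 0.05. Its unadjusted p of 9.33e-05 was the 15th lowest. DESeq2 gave -3.31 with an adjusted p of 9.95e-10, and with 1 library left out the edgeR value stayed between -3.51 and -3.07. Some cell type markers were also free of overlap between the groups. Of the 12 granulosa markers, 8 had negative and 4 positive log2 fold changes. Among them, FOXL2, WNT6 and FSHR were below all T0 libraries in every T16 library and FST was above them. DESeq2 called WNT6, FSHR and FST, and edgeR called 0 of the 12. FSHR, the FSH receptor gene, had 1.15, 3.46 and 0 TPM at T16, against 10.8, 45.6 and 28.3 TPM at T0, and WNT6 had 0.0547, 15.1 and 1.54 TPM at T16, against 39.0, 155 and 74.6 TPM at T0. The stroma markers DCN and POSTN and the smooth muscle and pericyte markers ACTA2, MYH11 and NOTCH3 were likewise below all T0 libraries, and MYOCD was above them. Of 9 stroma markers tested, 5 had negative and 4 positive log2 fold changes. Of 10 smooth muscle and pericyte markers tested, 7 were negative and 3 positive. KIT (oocyte), INSL3 (theca), CD74 (immune), UPK1B and MSLN (surface epithelium) were below too, and ESAM (endothelium) and CD68 (immune) above. Negative and positive log2 fold changes numbered 13 and 1 for oocyte, 4 and 2 for theca and 2 and 2 for immune markers tested. They numbered 7 and 3 for surface epithelium and 4 and 4 for endothelium. CLDN5, the most abundant endothelial marker, had 4.36, 31.3 and 16.9 TPM at T16, against 382, 228 and 13.6 TPM at T0, which overlap. Over all genes tested, 11.6% were below all T0 libraries and 11.5% above, and DESeq2 called 2.92% lower and 4.04% higher. The part of these markers in the level of NID1 was not tested, and these markers, beyond the most abundant of each list, were picked after their values were seen. In bulk libraries, fewer cells of a type and less RNA per cell cannot be told apart.

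NID2, the other nidogen, which also binds laminin and collagen IV, showed no difference beyond its spread. It had 107, 55.7 and 61.9 TPM in T16 replicates 1, 2 and 3, against 97.6, 92.8 and 82.3 TPM in the T0 libraries. T16 replicate 1 was the highest of all 6 libraries and T16 replicates 2 and 3 were the lowest, so the groups overlapped. The log2 fold change was -0.19 (SE 0.35, edgeR adjusted p = 0.869), and it was 0.0023 without T16 replicate 2. In rank by TPM, NID2 stood above 85.9% to 91.6% of the 23704 genes in the T16 libraries and above 90.2% to 91.8% in the T0 libraries.

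The balance between the nidogens differed accordingly, and this ratio within a library does not depend on scaling between libraries. NID1 made up 3.56%, 6.40% and 3.51% of the nidogen TPM in T16 replicates 1, 2 and 3, against 15.0%, 34.0% and 31.5% in T0 replicates 1, 2 and 3. NID2 was therefore 14.6 to 27.5 times as abundant as NID1 at T16 and 1.94 to 5.65 times at T0. LAMC1, the laminin γ1 chain that nidogens bind, had 60.4, 85.9 and 59.0 TPM at T16, against 74.8, 38.1 and 23.8 TPM at T0. NID1 per LAMC1 was 0.0381 to 0.0654 at T16 and 0.231 to 1.59 at T0, with no overlap. NID2 per LAMC1 was 0.648 to 1.77 at T16 and 1.31 to 3.45 at T0, which overlap.

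**Figure D2:**
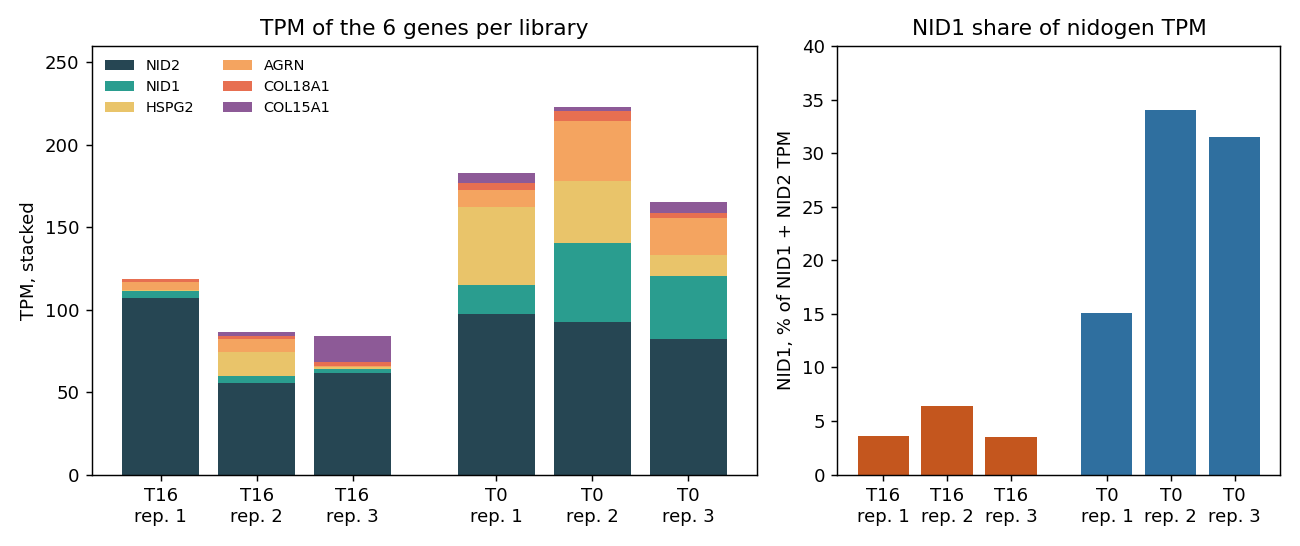
Left, TPM of the 6 genes stacked for each library; right, NID1 as a percent of NID1 plus NID2 TPM. NID2 holds 64.2% to 90.2% of the stack in the T16 libraries and 41.7% to 53.3% in the T0 libraries, and the NID1 percent is at most 6.40% at T16 and at least 15.0% at T0.

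HSPG2, which encodes perlecan, had 1.02, 15.0 and 1.17 TPM in T16 replicates 1, 2 and 3, against 47.2, 37.3 and 13.0 TPM in T0 replicates 1, 2 and 3. T16 replicate 2 was above T0 replicate 3, so the groups overlapped, while T16 replicates 1 and 3 were lower than all other libraries. The log2 fold change was -2.51 (SE 1.11, edgeR adjusted p = 0.381). T16 replicate 2 decided its size, and without it the value was -4.76 (edgeR adjusted p = 0.0831). LAMA1, a laminin chain of early epithelial basement membranes, was likewise highest at T16 in replicate 2, with 6.79, 94.7 and 13.2 TPM, against 152, 90.3 and 45.0 TPM at T0. Granulosa, theca and surface epithelium marker sums were also highest at T16 in replicate 2, at 1590, 1856 and 7837 TPM. So were those of endothelium, at 53.8 TPM, and of smooth muscle and pericyte, at 129 TPM. Oocyte and immune marker sums were lowest there, at 83.4 and 2.74 TPM, and the stroma sum was highest at T16 in replicate 3, at 1735 TPM. The part of these in the level of HSPG2 was not tested.

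AGRN, which encodes agrin, had 4.94, 7.59 and 0.320 TPM in T16 replicates 1, 2 and 3, against 10.7, 36.7 and 22.3 TPM in T0 replicates 1, 2 and 3. All T16 libraries were below all T0 libraries, with the closest values in T16 replicate 2 and T0 replicate 1. T16 replicate 3 held 59 estimated counts of AGRN, against 1296 to 5362 in the T0 libraries. The log2 fold change was -2.40 (SE 0.94, edgeR adjusted p = 0.317), and with 1 library left out it lay between -3.09 and -1.86. Perlecan and agrin together had 1.49 to 22.6 TPM at T16 and 35.2 to 74.0 TPM at T0. Perlecan was the larger of the pair in T16 replicates 2 and 3 and in T0 replicates 1 and 2, and agrin in T16 replicate 1 and T0 replicate 3.

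COL18A1, the source of endostatin, was low throughout. It had 1.67, 1.99 and 2.52 TPM in T16 replicates 1, 2 and 3, against 4.0, 6.10 and 3.22 TPM in T0 replicates 1, 2 and 3. The groups did not overlap, and the gap between T16 replicate 3 and T0 replicate 3 was small. The log2 fold change was -1.0 (SE 0.56, edgeR adjusted p = 0.501).

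COL15A1, whose product lies where basement membranes meet the interstitial matrix, differed strongly between the T16 libraries. It had 0, 2.63 and 15.7 TPM in T16 replicates 1, 2 and 3, against 6.17, 2.04 and 6.95 TPM in the T0 libraries. T16 replicates 1 and 3 were the lowest and highest of all 6 libraries. T16 replicate 1 had 0 counts of the matched transcripts, which allows up to 0.104 CPM (3 counts scaled to library size, for counting error only), whereas T16 replicate 3 had 2035 counts. The log2 fold change of 0.51 (SE 1.70, edgeR adjusted p = 0.935) was smaller than its error, and it was -1.97 without T16 replicate 3. The stroma marker COL1A2 and the basement membrane gene SPARC were also lowest in T16 replicate 1 and highest at T16 in replicate 3, and the stroma marker DCN was not. COL1A2 had 2.43, 160 and 634 TPM at T16, against 1488, 351 and 265 TPM at T0, and SPARC, a collagen-binding matrix protein, had 71.6, 3672 and 4541 TPM at T16, against 9763, 3033 and 1640 TPM at T0. DCN, the decorin gene, had 152, 165 and 121 TPM at T16, against 199, 489 and 461 TPM at T0, and was lowest in T16 replicate 3. The sum of the stroma markers was 276 TPM in T16 replicate 1, where 3 of 10 were at 0, and 1735 TPM in T16 replicate 3. Its part in the level of COL15A1 was not tested.

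All 6 genes passed the filter of at least 10 counts in at least 3 libraries, and edgeR called 0 of them at an adjusted p below 0.05. Over all genes it called 5 higher (0.0342%) and 1 lower (0.00683%) at T16. At an unadjusted edgeR p below 0.05, NID1 and AGRN were lower and 0 members higher, where 5.14% of all genes tested were lower and 8.61% higher. DESeq2 called NID1 lower and 0 members higher, where it called 2.92% of all genes lower and 4.04% higher. All T16 libraries were below all T0 libraries by TPM for 3 of the 6 genes, where this held for 11.6% of the genes tested, and above all of them for 0 of the 6, against 11.5% of the genes tested. The median log2 fold change was -1.70 over the 6 genes and -0.08 over all genes tested. No conclusion is drawn from these counts, because the genes were chosen with this contrast known.

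**Figure D3:**
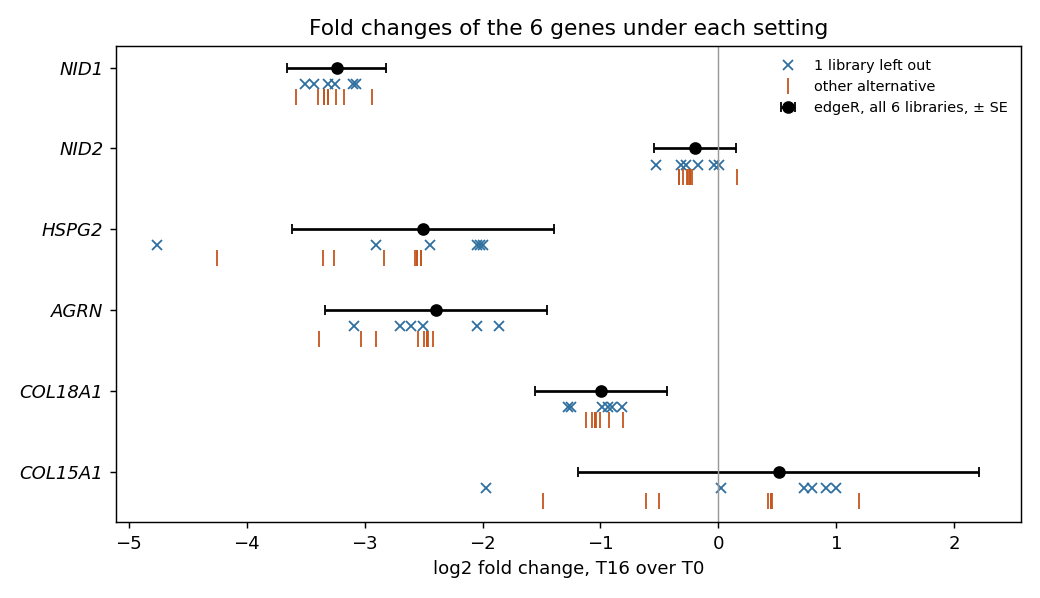
Log2 fold changes, T16 over T0, with all 6 libraries (black, ± SE), with 1 library left out (crosses) and under the other alternatives (ticks). NID1 stays between -3.58 and -2.94, HSPG2 spans -4.76 to -2.0, and COL15A1 lies on both sides of 0.

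Among the members, NID1 and AGRN had the most alike pattern over the 6 libraries (Pearson r = 0.90 on log2(TPM + 1)), followed by NID1 and COL18A1 (0.83). COL15A1 was the least alike, with r between -0.51 (NID2) and 0.24 (COL18A1). These correlations span both groups, so they share the difference between T16 and T0. Likeness was also sought among 10003 genes whose log2 CPM averaged 3 or more. Of these, the 3 most like NID1 were the immediate early gene EGR1, the tachykinin receptor TACR1 and MAGEH1, each with r = 0.99. EGR1 had 318, 329 and 159 TPM at T16, against 956, 2870 and 2182 TPM at T0. The genes most like HSPG2 were TSPAN3, CALCOCO1 and PIK3IP1, each with r = 0.99. PIK3IP1, an inhibitor of PI3K, had 0, 21.4 and 0.0190 TPM at T16, against 45.5, 41.3 and 11.4 TPM at T0. PDE7B, ATP1B2 and ZNF416 were most like AGRN, with r = 1.00, 1.00 and 0.99. The phosphodiesterase gene PDE7B had 3.55, 4.65 and 0.172 TPM at T16, against 7.01, 19.5 and 12.2 TPM at T0. NID2 was most like RGP1, TMEM185A and PDZRN3 (r = 1.00, 0.98 and 0.98), COL18A1 was most like PLEKHJ1, IQCC and PGAP3 (each 0.99), and COL15A1 was most like NDUFB3, NAGPA and EFNB1 (0.99, 0.97 and 0.97). These are descriptions over 6 libraries, chosen as the highest of 10003 values for each member.

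The RefSeq transcripts behind each gene were compared as shares of the gene, which its total level does not fix. Of the transcripts in the files, 2 of NID1, 1 of NID2, 5 of HSPG2, 4 of AGRN, 4 of COL18A1 and 3 of COL15A1 matched, and some were at 0 in every library. A single transcript of 5839 bases held 100%, 100% and 95.7% of NID1 TPM in T16 replicates 1, 2 and 3, against 88.8%, 95.4% and 92.7% in the T0 libraries. The other NID1 transcript is 15 bases shorter. The mean difference was 6.23 percentage points, and all T16 libraries were above all T0 libraries. The two-sided exact permutation p was 0.10, the smallest that 3 against 3 libraries allow, and 0.50 adjusted over the 5 genes with several transcripts.

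HSPG2 reads were placed mostly on a transcript of 14398 bases, with 100%, 86.2% and 0% of its TPM in T16 replicates 1, 2 and 3, against 85.7%, 96.9% and 88.5% in the T0 libraries. In T16 replicate 3 all of it was placed on a transcript of 14393 bases. The lengths of the 5 HSPG2 transcripts span 66 bases, and T16 replicate 3 had 420 counts of the gene. For AGRN, a transcript of 7469 bases held 100%, 49.4% and 79.6% at T16, against 91.1%, 98.1% and 97.6% at T0. In T16 replicate 2 the remaining 50.6% was on a transcript of 7060 bases, which had 5.44% in T0 replicate 1 and 0 in the other 4 libraries, and in T16 replicate 3 the other 20.4% was on a transcript of 7576 bases. COL18A1 had 84.8%, 90.3% and 49.3% on a transcript of 5548 bases at T16, against 80.7%, 93.3% and 95.1% at T0, with the remainder on a transcript of 4839 bases.

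For COL15A1 the main transcript differed between libraries. A transcript of 5312 bases held 100% and 87.6% in T16 replicates 2 and 3, against 62.4%, 0% and 37.4% in the T0 libraries, and a transcript of 5506 bases held 26.2%, 67.4% and 56.3% at T0 and 0% in T16 replicates 2 and 3. The exact permutation p for the 5312-base transcript was 0.20 with 2 T16 and 3 T0 libraries, the smallest they allow. For HSPG2, AGRN and COL18A1 the two-sided exact permutation p was 0.80, 0.40 and 0.40, and the adjusted p of all 5 genes was 0.50 or 0.80, so none passed. These shares come from Salmon's statistical placement of reads that fit several transcripts, and their error within a library is not in the files.

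**Figure D4:**
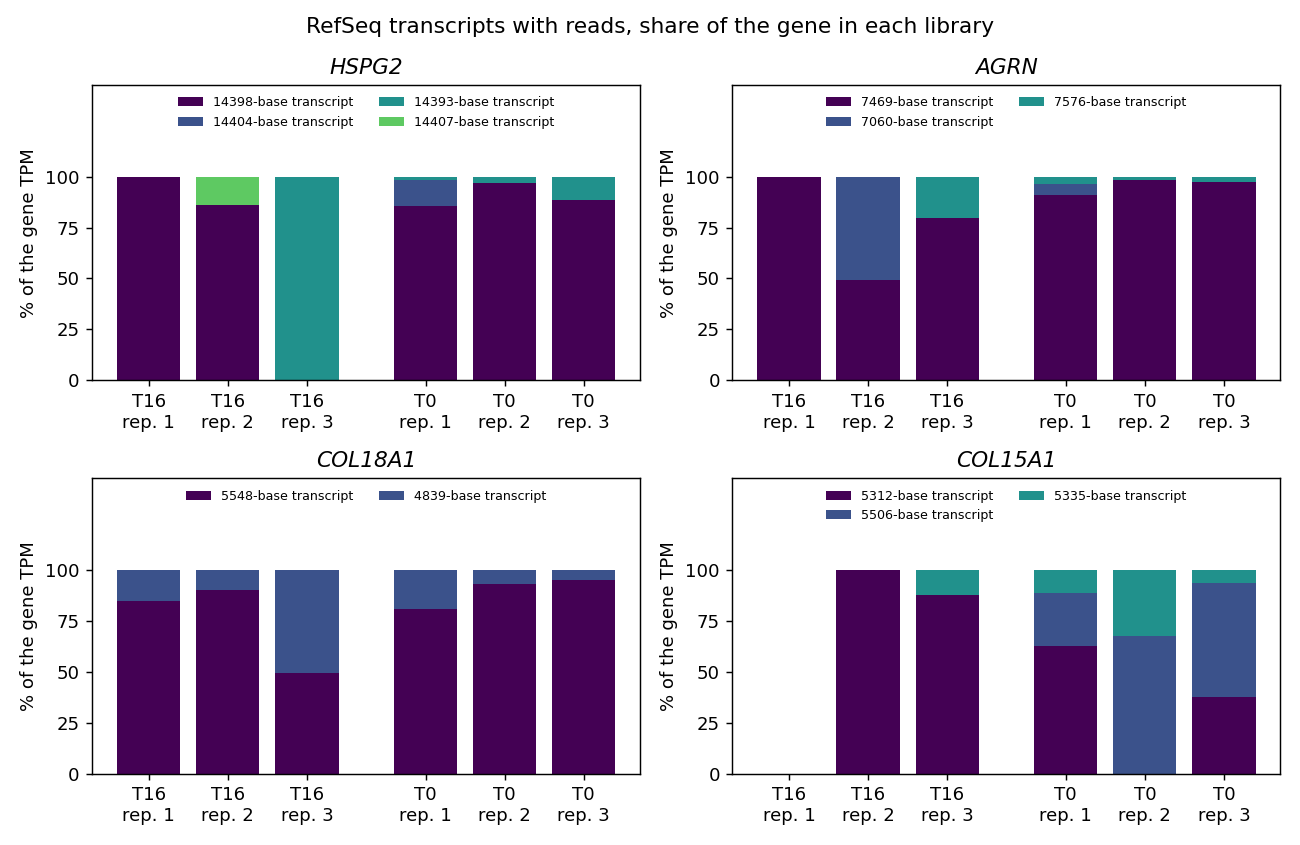
Percent of each gene's TPM on each RefSeq transcript with reads (colours, named by length in bases) in the 6 libraries, for HSPG2, AGRN, COL18A1 and COL15A1. The main transcript of HSPG2 is absent in T16 replicate 3, AGRN is split at 49.4% and 50.6% in T16 replicate 2, and COL15A1 has no bar in T16 replicate 1, where it is at 0.

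The partners of these proteins were described from lists chosen by function. Beside the signs counted below, 7822 of all 14639 genes tested had negative and 6817 positive log2 fold changes (median -0.08). No conclusion is drawn from the counts of the lists. All 6 collagen IV chains had negative log2 fold changes (median -1.97), but edgeR called 0 of 6. In COL4A2, COL4A3 and COL4A4 every T16 library was below every T0 library, which held for 11.6% of all genes tested. COL4A4, like the other genes below named for their lack of overlap and not for their abundance, was picked after its values were seen. COL4A3, a chain of the collagen that nidogens bind, had 15.0, 4.27 and 5.85 TPM at T16, against 25.3, 68.3 and 65.1 TPM at T0 (log2 fold change -2.53, SE 0.56, edgeR adjusted p = 0.122). COL4A1 had 31.6, 56.2 and 57.5 TPM at T16, against 194, 92.2 and 48.3 TPM at T0, and COL4A2 had 4.71, 5.39 and 12.4 TPM at T16, against 31.1, 25.3 and 15.4 TPM at T0. Of the 8 laminin chains tested, 5 had positive and 3 negative fold changes (median 0.32), and 0 were called by edgeR. LAMB1 was the most abundant laminin chain, with 155, 137 and 179 TPM at T16, against 223, 98.2 and 55.3 TPM at T0. The sign of the median thus differed between the network collagens and the laminins, a difference that was not tested.

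Of 13 other basement membrane genes tested, 11 had negative fold changes (median -1.26) and edgeR called 0. The nidogen-binding fibulin genes FBLN1 and FBLN2 and MATN2 were below all T0 libraries at T16, and TINAGL1 was above them. Of all genes tested, 11.6% were below and 11.5% above. NTN4, a laminin-related netrin, was even, with 92.7, 56.8 and 80.0 TPM at T16, against 77.9, 109 and 78.5 TPM at T0. SMOC2 had 0.0424, 60.7 and 26.6 TPM at T16, against 262, 98.4 and 34.4 TPM at T0. Of 14 receptors, 8 had negative fold changes (median -0.94) and 0 were called by edgeR. BCAM, a receptor of laminin α5, had 154, 137 and 122 TPM at T16, against 321, 502 and 260 TPM at T0 (log2 fold change -1.28, SE 0.35, edgeR adjusted p = 0.166). ITGA6, a laminin-binding integrin subunit, had 53.4, 120 and 31.1 TPM at T16, against 112, 173 and 132 TPM at T0, and ITGAV had 135, 414 and 303 TPM at T16, against 1667, 419 and 77.2 TPM at T0.

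Of 11 other heparan sulfate proteoglycans tested, 8 had negative fold changes (median -0.92) and edgeR called 0. The groups overlapped for both syndecans named here and not for GPC4. Of the 11, 2 (GPC4 and GPC5) were below all T0 libraries in every T16 library, where this held for 11.6% of all genes tested. The syndecan gene SDC4 had 233, 182 and 170 TPM at T16, against 138, 124 and 351 TPM at T0, and SDC2 had 187, 106 and 215 TPM at T16, against 85.5, 261 and 200 TPM at T0. The glypican gene GPC4 had 109, 95.9 and 43.4 TPM at T16, against 235, 140 and 118 TPM at T0. Of 25 genes of heparan sulfate synthesis and remodelling, 15 had negative fold changes (median -0.17) and 0 were called by edgeR. The groups overlapped for the 3 most abundant, whose T0 replicate 1 was the highest library of all. EXT2, a subunit of the polymerase that extends the chains, had 40.2, 122 and 92.1 TPM at T16, against 223, 99.6 and 60.6 TPM at T0. PAPSS2, which makes the sulfate donor, had 5.42, 214 and 57.0 TPM at T16, against 339, 106 and 67.7 TPM at T0, and the linker enzyme B3GAT3 had 34.4, 97.1 and 72.9 TPM at T16, against 114, 85.7 and 45.8 TPM at T0. HPSE, the heparanase that cleaves heparan sulfate, was chosen after its values were seen, and had 1.99, 1.40 and 1.57 TPM at T16, against 17.4, 138 and 65.4 TPM at T0 (log2 fold change -5.29, SE 0.78, edgeR adjusted p = 0.0872).

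Of 11 growth factors that bind heparan sulfate, 9 had positive fold changes (median 1.17) and 0 were called by edgeR. FGF7 and PDGFA were above all T0 libraries in every T16 library, as were 11.5% of all genes tested. FGF7 had 581 counts at T16 and 1 at T0, so it passed the count filter only through the T16 libraries. For the 3 most abundant the groups overlapped, and PTN and MDK went against the sign of the median. PTN had 95.3, 165 and 121 TPM at T16, against 212, 135 and 287 TPM at T0, HBEGF had 325, 105 and 110 TPM at T16, against 90.4, 140 and 226 TPM at T0, and MDK had 5.08, 40.6 and 13.2 TPM at T16, against 158, 72.7 and 29.0 TPM at T0. Of 11 collagen processing genes, 8 had negative fold changes (median -0.56) and 0 were called by edgeR. Every T16 library was above every T0 library for PPIB, 1 of the 11, where this held for 11.5% of all genes tested. The prolyl isomerase gene PPIB had 1272, 1143 and 1694 TPM at T16, against 1058, 815 and 703 TPM at T0, and the collagen chaperone gene SERPINH1 had 243, 247 and 325 TPM at T16, against 873, 204 and 166 TPM at T0. PLOD2 had 53.4, 298 and 214 TPM at T16, against 765, 188 and 154 TPM at T0.

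Among the matrix proteases and their inhibitors, the collagenase MMP1 and the stromelysin MMP3 were the 2 of 23 tested that edgeR called, both higher at T16. Over all genes tested, edgeR called 5 higher (0.0342%) and 1 lower (0.00683%). Of the 23, 13 had negative fold changes (median -0.30). DESeq2 called 4 of the 23 higher and 0 lower, against 4.04% and 2.92% of all genes tested. By TPM, 4 were above all T0 libraries and 2 below, against 11.5% and 11.6% of all genes tested. MMP1 had 197, 133 and 45.8 TPM at T16, against 0, 0.117 and 0 TPM at T0 (edgeR adjusted p = 0.0357), and MMP3 had 109, 111 and 85.6 TPM at T16, against 0, 0.0616 and 0 TPM at T0 (edgeR adjusted p = 0.0183). The T0 libraries together held 4 counts of MMP1 and 2 of MMP3, so both passed the count filter only through the T16 libraries. Both were tested in 3 of the fits with 1 library left out, and the only call there was MMP3 without T0 replicate 1. The inhibitor TIMP2 had 386, 1173 and 2135 TPM at T16, against 3464, 1496 and 1014 TPM at T0, TIMP1 had 668, 1002 and 1643 TPM at T16, against 3102, 1340.3 and 636 TPM at T0, and the plasminogen activator gene PLAT had 29.6, 774 and 782 TPM at T16, against 1928, 408 and 187 TPM at T0.

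**Figure D5:**
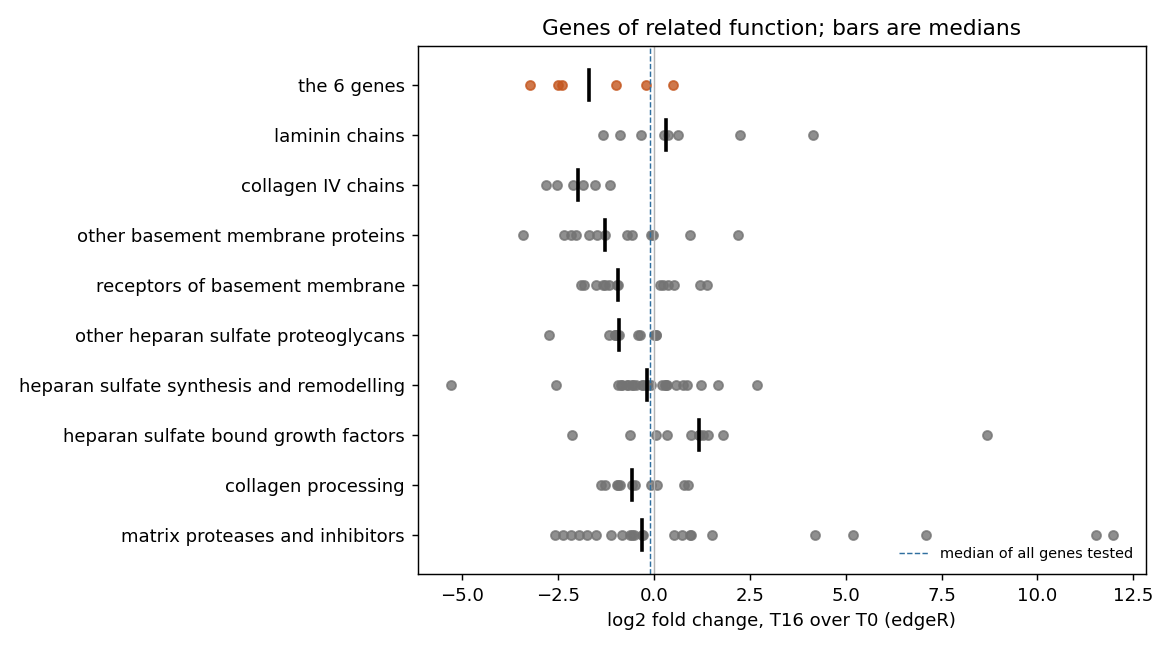
Log2 fold changes, T16 over T0, of the tested genes of each list (points) with their medians (bars); the dashed line is the median of all genes tested, -0.08. The medians are -1.70 for the 6 genes, -1.97 for the collagen IV chains and 0.32 for the laminin chains.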

How the data were processed

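The members and the gene lists were chosen with earlier results of these data known. The authors trimmed the reads (Trim Galore, fastp), and ran Salmon against bovine transcripts of build ARS-UCD1.3. The deposited values, per library, are estimated counts, TPM and lengths for 76123 RefSeq transcripts. SMART-Seq v4 cDNA was amplified by PCR without molecular identifiers, so intervals and floors cover counting error only. Gene symbols came from RefSeq's list for ARS-UCD2.0, whose positions were not printed; 50205 (66.0%) matched by accession without version, and 9.74% to 10.91% of the counts of a library were unmatched and left out.

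Transcript values were then added up for 23704 genes, the estimated counts being rounded to whole numbers. The test of T16 against T0 was the quasi-likelihood test of edgeR 4.0.16 in R 4.3.3, with TMM scaling and Benjamini-Hochberg adjustment, over 14639 genes (3 or more libraries of 10 or more counts). SEs are the absolute log2 fold change before edgeR's shrinkage, divided by the square root of F. Alternatives were DESeq2 1.42.0, other filters and scalings, the replicate block, limma 3.58.1 on log2(TPM + 1) or log2(TPM + 0.1), and libraries left out. Transcript shares were tested by exact permutation (scipy 1.17.1). Named genes are the 6 members, the 3 genes most like each, and the 3 most abundant of each list with any called by edgeR; others are given as chosen later or by overlap. The fits were tested on simulated counts.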

Additional observations from a re-analysis of the deposited data

How the results depend on the processing

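The number of genes called over the whole table depended on the setting. edgeR's 5 higher and 1 lower genes became 591 and 428 with DESeq2, 67 and 36 with limma on log2(TPM + 1), 51 and 32 with limma on log2(TPM + 0.1), and 13 and 6 with 10 counts required in all 6 libraries; without a count filter 4 were lower. With 1 library left out, 0 to 2 genes were called higher and 0 to 1 lower (1038 to 2379 genes at an unadjusted p below 0.05), and without both libraries low in oocyte transcripts (T16 replicate 2 and T0 replicate 1) 0 and 0 (2263 at an unadjusted p below 0.05). With the replicate number as a block, edgeR called 0 higher and 0 lower (1385 at an unadjusted p below 0.05), and NID1 had -3.18 (adjusted p = 0.359). Same-numbered libraries did not deviate together (correlations of -0.445, -0.121 and -0.00469), so the number was not taken to pair them.

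NID1 passed with DESeq2 (-3.31, adjusted p = 9.95e-10) and with 10 counts required in all 6 libraries (-3.39, edgeR adjusted p = 0.0462, on 11267 genes tested), and its direction held in all 15 alternatives, over which its adjusted p was 9.95e-10 to 0.369. HSPG2, AGRN and COL18A1 kept their direction and did not pass in the same 15. NID2 was 0.16 without both libraries low in oocyte transcripts, and -0.53 to 0.0023 with 1 library left out. COL15A1 was -0.61 with the replicate block, -0.50 and -1.48 with limma on log2(TPM + 1) and log2(TPM + 0.1), and -1.97 to 1.00 with 1 library left out; it could not be fitted with 10 counts in all 6 libraries, since it is at 0 in T16 replicate 1. The difference in the HSPG2 transcript share ranged from -47.3 to 2.70 points with 1 library left out, positive only without T16 replicate 3. The COL15A1 share could not be computed without T16 replicate 2 or 3. The cause of these shifts was not tested. The fewest counts were those of COL15A1 in T16 replicate 1 (0) and AGRN in T16 replicate 3 (59), although T16 replicate 3 was the deepest of the 6 libraries.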
